A study of Mus musculus with 15 samples.

Results

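The N-glycosylation genes described here are 39 of the 21669 genes with a symbol in the table. They were chosen by symbol for what their products do, with earlier results of these data known. These products make the dolichol-linked sugar chain, move it onto proteins, trim it in the endoplasmic reticulum (ER), and finish it in the Golgi. All 39 were found, and all passed the filter on low values (at least 3 of the 15 columns with an RPKM of 1 or more), which 11299 genes passed. RPKM here is the RPM of a gene (its reads, scaled to the total of reads counted in the library) per kilobase of its length, and levels are in RPKM unless RPM is named. A member had between 52 reads (*Dpm1*) and 33643 reads (*Rpn1*) in a library.

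RNA-seq was available for 5 groups of 3 libraries, all from wild-type female C57BL/6J mice. Naive B cells (nB) were splenic cells left after depletion of CD43+ cells, with no stimulus and no drug. Activated B cells (actB, sorted as B220+GL7+CD138-) and plasmablasts (Pb, sorted as CD138+) came from cultures of such cells with LPS, Il2, and Il5 for 3 days, with DMSO or with GSK343, an inhibitor of the histone methyltransferase EZH2. For Pb with GSK343 the stimulation label names Il6 where those of the other cultures name Il5, whereas the treatment protocol of the same libraries and the study's methods name Il5 with either treatment. If Il6 was used, the drug and the cytokine cannot be told apart in Pb. Mice were 6 to 9 weeks old, and every library, nB included, carries the source name of cultured cells.

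In N-glycosylation a chain of glucose, mannose, and N-acetylglucosamine is built on the lipid dolichol, first on the cytosolic and then on the lumenal face of the ER membrane. The oligosaccharyltransferase (OST) transfers the chain to asparagine residues of proteins entering the ER, where glucosidases and a folding sensor act on it, and Golgi enzymes then trim, branch, and cap it. Plasma cells secrete immunoglobulin, a glycoprotein, in large amounts, and enlargement of the ER is a known part of their formation.

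Reads counted per library ranged from 19421830 to 26307413, so that 3 reads equal 0.114 to 0.154 RPM. The first and second nB libraries differed by less than sampling noise, with a chi-square per degree of freedom of 0.00958 over 14442 genes against at least 3.58 in all other pairs, and were averaged and counted as 1 sample, which leaves n = 2 for nB and 14 libraries. Replicate 2 stood apart from replicates 1 and 3 in every cultured group (chi-square per degree of freedom of 7.64 to 29.7 against 3.58 to 6.07 between the other 2). Leaving it out of all 4 cultured groups moved the counts of members called between cell types by at most 1, and its effect on the GSK343 counts is given beside them. The study calls the libraries of a group biological replicates and their titles start with m and the replicate number, but neither says whether each came from a separate mouse, so p-values measure the spread between these libraries. Group means of *Sdc1*, the gene of CD138, were 5.17 RPKM in nB, 0.665 in actB, and 29.7 in Pb with DMSO, and those of *Xbp1*, a transcription factor of plasma cells, 50.7, 190.2, and 955. The members lie on 17 chromosomes, and 31 share no exon base with another gene in GENCODE vM1 (mm9).

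Stretches just upstream of the gene starts are shown for the OST subunits *Rpn1* and *Ddost*, which had the largest increases in Pb, for *Stt3a* and *Stt3b*, whose ratio differed between cell types, and for the branching enzyme *Mgat5*, which had the largest decrease. That of the mannosyltransferase *Alg12* is shown for an ER stress element. They are RefSeq promoter sequences (table build GRCm38.p6), each found once in mm9, whose coordinates are given. They are printed 5′ to 3′ on the strand of the gene, without bases that GENCODE vM1 puts in an exon, and capitals mark CCAAT and CCACG on either strand (ATTGG and CGTGG as their reverse complements). For *Stt3a* the stretch therefore ends 58 bases before the start, and its CCAAT lies outside the bases shown.
Alg12 (chr15:88649749-88649998, minus strand): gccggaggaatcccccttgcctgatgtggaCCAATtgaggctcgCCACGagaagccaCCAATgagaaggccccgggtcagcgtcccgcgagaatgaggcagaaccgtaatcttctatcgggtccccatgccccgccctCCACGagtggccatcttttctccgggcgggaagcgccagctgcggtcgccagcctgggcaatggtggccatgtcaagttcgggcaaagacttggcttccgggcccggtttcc
Ddost (chr4:137860403-137860644, plus strand): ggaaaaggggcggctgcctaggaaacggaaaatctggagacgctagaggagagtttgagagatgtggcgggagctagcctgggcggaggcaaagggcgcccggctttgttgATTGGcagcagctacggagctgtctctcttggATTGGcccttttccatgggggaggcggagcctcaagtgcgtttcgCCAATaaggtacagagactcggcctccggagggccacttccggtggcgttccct
Rpn1 (chr6:88034217-88034466, plus strand): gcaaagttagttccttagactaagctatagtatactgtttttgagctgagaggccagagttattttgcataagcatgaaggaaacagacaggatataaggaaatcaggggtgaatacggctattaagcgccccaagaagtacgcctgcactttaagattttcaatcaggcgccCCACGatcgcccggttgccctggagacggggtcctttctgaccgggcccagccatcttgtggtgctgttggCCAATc
Stt3a (chr9:36575265-36575457, minus strand): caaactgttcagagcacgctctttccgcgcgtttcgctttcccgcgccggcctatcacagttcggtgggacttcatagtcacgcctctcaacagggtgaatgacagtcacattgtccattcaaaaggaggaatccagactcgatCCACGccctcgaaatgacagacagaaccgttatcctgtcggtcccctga
Stt3b (chr9:115219587-115219836, minus strand): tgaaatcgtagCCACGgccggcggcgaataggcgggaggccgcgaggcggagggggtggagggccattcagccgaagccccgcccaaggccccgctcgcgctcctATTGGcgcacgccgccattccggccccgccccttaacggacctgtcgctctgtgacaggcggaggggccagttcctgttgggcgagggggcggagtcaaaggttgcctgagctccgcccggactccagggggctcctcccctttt
Mgat5 (chr1:129101313-129101562, plus strand): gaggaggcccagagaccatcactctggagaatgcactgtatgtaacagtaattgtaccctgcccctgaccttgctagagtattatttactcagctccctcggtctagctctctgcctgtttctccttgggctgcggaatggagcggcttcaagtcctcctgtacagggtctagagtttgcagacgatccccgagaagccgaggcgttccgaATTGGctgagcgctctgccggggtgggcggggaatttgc

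The stretch of *Alg12* holds the only ER stress element among the members, a sequence of CCAAT, 9 bases of any kind, and CCACG that is known as a site of the unfolded protein response. In the 250 bases before the start, which could be matched for 33 of the 39 members, this element was found in 1 (3.03%) and in 0.13% of 27025 genes. CCACG alone was found in 11 members (33.3%) against 31% of all genes, and CCAAT in 18 (54.5%) against 37.5%. Both together were in 5 members (15.2%; *Alg12*, *Rpn1*, *St6gal1*, *Stt3a*, and *Stt3b*) against 10.6% of genes. Of the other sequences searched on both strands, TGACGTG was found in *Dpm2* and *Mogs* (6.06%, against 1.85% of genes), CCACGT in *Alg6* (3.03%, against 7.84%), and the E box CACGTG in *Dpm2*, *Magt1*, and *Prkcsh* (9.09%, against 6.86%). A second ER stress element (ATTGG, any base, CCACG) was found in 0 members and 0.037% of genes. CCACG lies within CCACGT and within both ER stress elements, so these counts overlap. They describe letters in these windows and say nothing of binding.

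Members were higher in Pb than in actB in most cases. In the cultures with DMSO, 32 of the 39 members rose from actB to Pb, 2 fell (*Pmm2* and *Mgat5*), and 5 did not pass the test (*Dpm1*, *Dpm2*, *Alg13*, *Alg6*, and *Fut8*). Of all 11299 genes tested, 27.3% were higher and 42.4% lower in Pb (limma, adjusted p under 0.05). The median log2 fold change of the members was 0.94, with a range from -1.37 to 1.83, and that of all genes was -0.12, so that relative to the median gene each rise was larger and each fall smaller by this amount. Over the 39 members the summed RPM was 5450 to 5553 in the actB libraries and 12111 to 12428 in the Pb libraries, which is 0.55% and 1.23% of the reads on average. Counts of members higher ranged from 30 to 35 under the other settings tried, with 2 lower under each. In bulk samples such as these, a larger share of cells that express a gene and more of its RNA per cell cannot be told apart.

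Against nB, 28 members were higher in actB with DMSO, 8 were lower (*Dpm3*, *Alg1*, *Dad1*, *Tusc3*, *Man2a1*, *Mgat1*, *Mgat5*, and *St6gal1*), and 3 did not pass the test (*Dpm2*, *Alg9*, and *Man1a*), where 40.9% of all genes were higher and 36.3% lower. The median was 0.49 on the log2 scale for the members and 0.05 for all genes. From nB to Pb, 35 members were higher, 2 lower (*Tusc3* and *Mgat5*), and 2 not called (*Pmm2* and *Dpm2*), against 39.5% of all genes higher and 41.1% lower, with medians of 1.54 and -0.02. The 3 comparisons share libraries, so where a gene is described over several of them, these are not independent results. The nB libraries also held RNA of other cells: summed RPM of 5 T cell markers was 52.0 to 55.5, of 2 NK cell markers 9.90 to 11.5, of 6 myeloid markers 278 to 363, and of 2 erythroid markers 21.3 to 91.1. In the cultured DMSO libraries these sums were at most 0.734, 0.084, 31.5, and 8.79, with *S100a8* and *S100a9* at 0 reads. Among the myeloid markers *Itgam* was not lower in actB, with means of 4.02 RPKM in nB and 4.27 in actB with DMSO. The part of these other cells in the comparisons with nB was not tested.

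**Figure D1:**
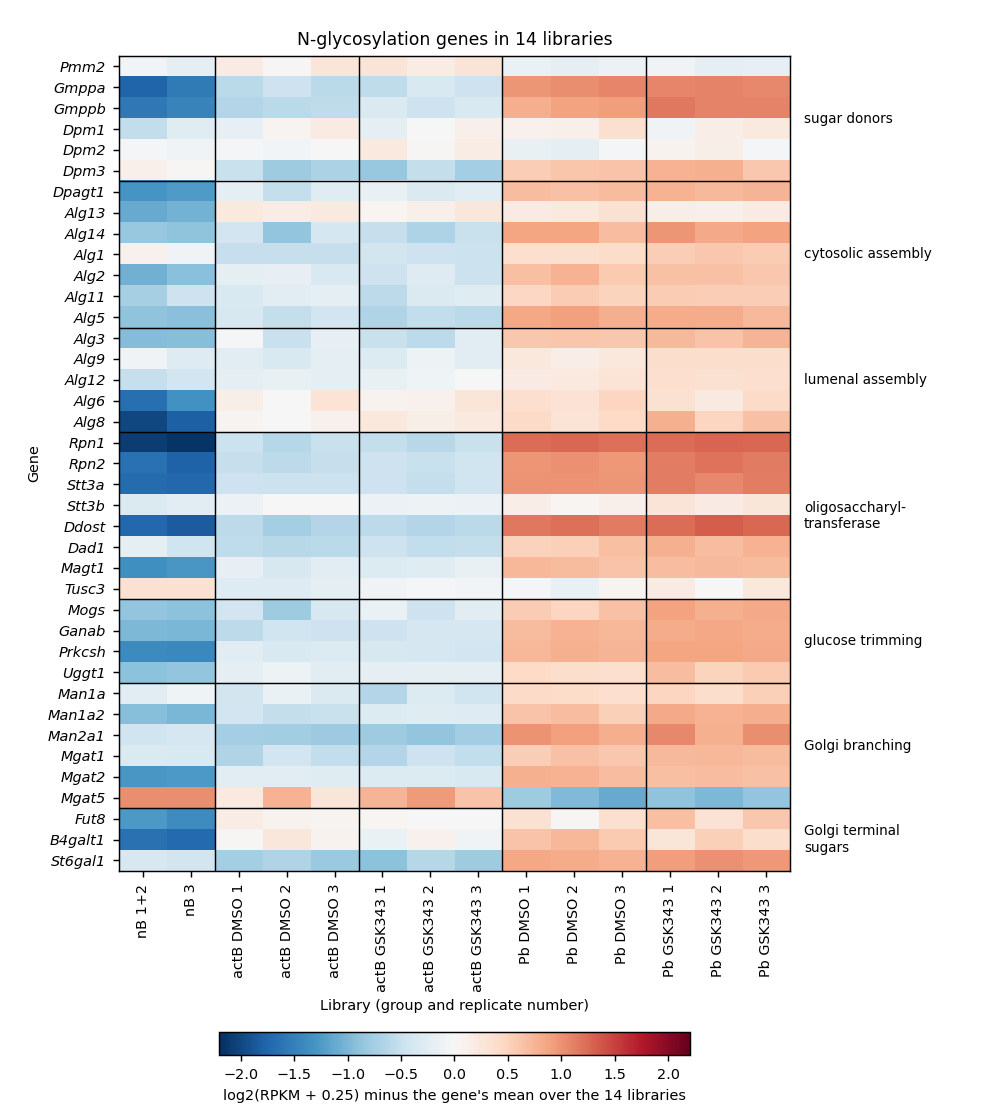
Heat map of the 39 members (rows, by role) in 14 libraries (columns, by group and replicate number), with color for log2(RPKM + 0.25) minus the gene's mean over the libraries. The Pb libraries are above the mean for most rows and the nB libraries below it, with *Mgat5* as the clearest row of the opposite order.

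Sugar donors are made by 6 members. Of these, 3 rose from actB to Pb (*Gmppa*, *Gmppb*, and *Dpm3*), *Pmm2* fell, and *Dpm1* and *Dpm2* were not called. *Gmppb* is the catalytic and *Gmppa* the regulatory subunit of the enzyme that makes GDP-mannose. *Gmppa* was at 20.8 and 23.8 RPKM in nB, 47.0, 51.7, and 46.9 in actB with DMSO, and 139, 144, and 149 in Pb with DMSO, an order without overlap at either step. Its log2 fold change was 1.11 from nB to actB and 1.57 from actB to Pb (adjusted p = 2.44e-08 and 7.40e-10). *Gmppb* rose in the same order, from 9.03 and 9.63 RPKM in nB to 17.3, 17.9, and 18.4 in actB and 47.5, 50.6, and 51.9 in Pb (log2 fold changes 0.92 and 1.47, adjusted p = 2.02e-08 and 2.42e-10). On *Gmppb*, 937 exon bases lie opposite *Rnf123* and 111 are shared with another transcript on the same strand, and strand use in counting is not stated.

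*Pmm2*, the phosphomannomutase that feeds the same enzyme, took another course. It was at 24.9 and 22.6 RPKM in nB, 29.6, 26.6, and 31.3 in actB, and 23.6, 22.5, and 23.9 in Pb, so that all actB libraries lay above all libraries of both other groups. The log2 difference of Pb from actB was -0.32 (adjusted p = 8.50e-04), and that of Pb from nB -0.02 (adjusted p = 0.772). *Dpm1*, *Dpm2*, and *Dpm3* form the synthase of dolichol-phosphate-mannose, with *Dpm1* as the catalytic subunit. *Dpm3*, which tethers the catalytic subunit to the membrane, was at 35.2 and 33.2 RPKM in nB, 23.0, 18.8, and 20.0 in actB, and 47.6, 49.8, and 50.6 in Pb. It was thus lowest in actB, with log2 fold changes of -0.73 to actB and 1.25 from there to Pb (adjusted p = 2.10e-05 and 7.00e-08). *Dpm2* differed by 0.02 and -0.10 at these steps, with 95% intervals of -0.13 to 0.18 and -0.24 to 0.04, around group means of 40.0 ± 0.859, 40.6 ± 0.954, and 38.0 ± 2.60 RPKM (SD; n = 2, 3, and 3). The level of *Dpm1* was 1.11 to 1.80 RPKM as group means, and 4393 of its exon bases are shared with *Adnp* on the same strand, so its values are uncertain.

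The cytosolic steps of assembly are covered by 7 members, of which 6 rose from actB to Pb, with a median log2 fold change of 0.91, and *Alg13* was not called. *Dpagt1*, which adds the first sugar to dolichol, had means of 7.51 ± 0.187, 14.7 ± 1.69, and 29.4 ± 0.520 RPKM in nB, actB, and Pb. *Alg13* and *Alg14* form the enzyme of the next step, and their mRNAs parted: *Alg13* had a log2 fold change of 1.27 from nB to actB and 0.05 from actB to Pb, and *Alg14* of 0.30 and 1.36. The second value of *Alg13* was not called (adjusted p = 0.533) except with median scaling (0.0488) and with edgeR and RLE factors (0.0414). The mannosyltransferase *Alg2* was the member of this role with the highest mean RPKM over the 5 groups by the lengths of the table, at 11.4 and 12.6 in nB, 20.8, 21.3, and 19.0 in actB, and 38.4, 40.9, and 36.0 in Pb. Its groups did not overlap, and its log2 fold changes were 0.75 and 0.91 (adjusted p = 1.47e-06 and 1.20e-07).

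*Alg1*, which adds the first mannose, was at 14.3 and 12.6 RPKM in nB, 9.31, 9.31, and 9.34 in actB, and 17.3, 17.0, and 17.7 in Pb. It was lowest in actB without overlap, with log2 fold changes of -0.51 and 0.88 (adjusted p = 4.17e-06 and 1.47e-08), and 472 of its exon bases lie opposite *Fam86*. *Alg11*, which adds the last mannoses on this face, and *Alg5*, which makes dolichol-phosphate-glucose, had log2 fold changes of 0.76 and 1.29 from actB to Pb.

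On the lumenal face, 4 of 5 members rose from actB to Pb, by 0.34 to 0.83 on the log2 scale, and *Alg6* was not called. The glucosyltransferases *Alg6* and *Alg8* differed mainly between nB and actB. *Alg8* was at 6.85 and 7.88 RPKM in nB, 29.4, 27.9, and 30.1 in actB, and 37.7, 34.7, and 38.3 in Pb. The groups did not overlap, but the log2 fold change was 1.95 at the first step (adjusted p = 6.60e-10), the largest among the members, and 0.34 at the second (adjusted p = 0.00194). *Alg6* was at 2.48 and 3.20 RPKM in nB, 9.28, 8.52, and 10.5 in actB, and 10.9, 10.6, and 11.7 in Pb. Its Pb libraries were all above its actB libraries by a narrow margin, with a log2 fold change of 0.23 (adjusted p = 0.0569) after 1.65 at the first step (adjusted p = 3.60e-08). This p went below 0.05 under 7 other settings, among them edgeR with RLE factors (log2 fold change 0.35, adjusted p = 0.00527), the replicate block (0.00126), and without actB DMSO replicate 3 (0.0244). Mannosyltransferases of this face, *Alg3*, *Alg9*, and *Alg12*, had log2 fold changes of 0.83, 0.45, and 0.42 from actB to Pb.

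**Figure D2:**
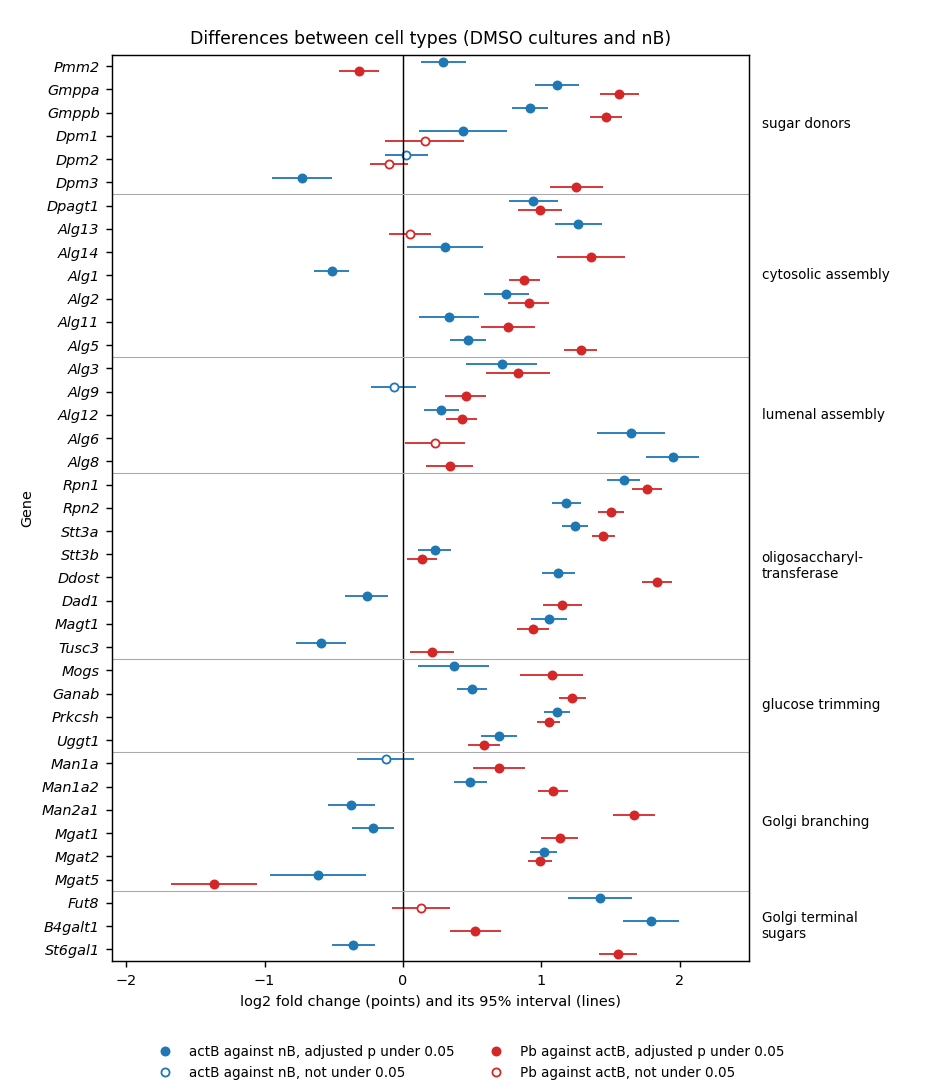
Log2 fold change of each member (rows, by role) for actB with DMSO against nB (blue) and for Pb against actB in DMSO (red), with lines for the 95% interval and filled points for an adjusted p under 0.05. All 8 OST subunits have a filled red point right of 0, and *Mgat5* has both points left of 0.

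All 8 subunits of the OST rose from actB to Pb, with a median log2 fold change of 1.30, and 6 rose from nB to actB while *Dad1* and *Tusc3* fell. As summed RPM the 8 subunits made up 27.3% of the reads of all members in nB, 36.2% in actB, and 42.7% in Pb with DMSO. With the lengths of the table, the 4 highest levels among the members in Pb with DMSO were of *Ddost* (446 ± 11.8 RPKM), *Rpn1* (406 ± 7.47), *Rpn2* (387 ± 4.88), and *Stt3a* (320.4 ± 3.61) (all SD, n = 3). With the exon bases of GENCODE vM1 as lengths, *Ddost* and *Rpn1* remained the 2 highest, *Rpn2* was number 4, and *Stt3a* number 8, so the order of the genes depends on the lengths used.

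*Rpn1*, a subunit near the protein-conducting channel, was at 40.2 and 38.4 RPKM in nB, 123, 111, and 123 in actB, and 405, 413, and 398 in Pb. The groups lay far apart: the mean was 3.04-fold higher in actB than in nB and 3.40-fold higher in Pb than in actB (log2 fold changes 1.59 and 1.76, SE 0.05 and 0.05, adjusted p = 6.07e-11 and 4.16e-11). From nB to Pb it had the largest log2 fold change of all members, 3.36, higher than that of 97.8% of all genes tested. *Ddost*, another subunit without catalytic activity of its own, was at 59.1 and 55.5 RPKM in nB, 132, 118, and 126 in actB, and 441, 460.0, and 438 in Pb. It had the largest log2 fold change of the members from actB to Pb, 1.83 (SE 0.05, adjusted p = 3.37e-11).

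*Rpn2*, a further noncatalytic subunit, of which 242 exon bases lie opposite another transcript, was at 62.7 and 57.4 RPKM in nB, 139, 132, and 139 in actB, and 385, 392, and 383 in Pb. Its groups were as distinct, with log2 fold changes of 1.18 and 1.50 (adjusted p = 2.74e-10 and 4.80e-11). *Dad1*, a small subunit, had means of 22.7 ± 2.71 RPKM in nB, 18.9 ± 0.423 in actB, and 42.2 ± 2.43 in Pb, and thus a log2 fold change of -0.26 at the first step and 1.15 at the second (adjusted p = 0.00509 and 8.64e-09). Without nB replicate 1 the first call was lost (adjusted p = 0.098).

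*Stt3a* and *Stt3b* are the alternative catalytic subunits of the OST: complexes with *Stt3a* act on chains as they enter the ER, and those with *Stt3b* also on sites left after synthesis. In nB *Stt3a* was at 49.7 and 49.0 RPKM, in actB at 118, 116, and 117 without and 118, 112, and 119.6 with GSK343, and in Pb at 323, 322, and 316 without and 353, 336, and 354 with the drug. *Stt3b* was at 60.8 and 64.7 RPKM in nB, at 69.3, 76.3, and 75.5 and, with GSK343, 68.8, 70.0, and 69.5 in actB, and at 83.7, 77.9, and 81.4 and, with the drug, 91.9, 85.6, and 90.6 in Pb. With the lengths of the table, *Stt3b* was the higher of the pair in both nB libraries and *Stt3a* in every actB and Pb library. The table gives *Stt3a* 2697 bases, against 7017 exon bases in GENCODE vM1, and *Stt3b* 4220 against 4195, and with the GENCODE lengths *Stt3b* was the higher in every actB library too. From actB to Pb the log2 fold change was 1.45 for *Stt3a* (SE 0.04, adjusted p = 3.24e-11) and 0.14 for *Stt3b* (SE 0.05, adjusted p = 0.0257). The call for *Stt3b* was lost without actB DMSO replicate 1 (adjusted p = 0.117), Pb DMSO replicate 1 (0.0971), or Pb DMSO replicate 3 (0.0615), and with only the groups compared (0.0665).

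As a ratio within each library, which no scaling of the libraries can change, *Stt3a* over *Stt3b* was 0.787 in nB. It was 1.59 in actB and 3.96 in Pb under DMSO, and 1.68 and 3.89 under GSK343 (geometric means). Every Pb library was above every actB library, since the ratios spanned 1.53 to 1.72 in actB and 3.84 to 4.14 in Pb. The log2 ratio was 1.27 higher in Pb, with p = 0.005 in an exact two-sided permutation test of the cell type labels within each treatment, which is the smallest its 400 assignments allow, and adjusted p = 0.01 over the 4 pairs of related genes tested. Labels were also swapped only between libraries of the same replicate number, separately in each treatment. The exact permutation p was then 0.03125, the smallest that 64 assignments allow. Without replicate 2 the difference was 1.21 (exact permutation p = 0.0556, the smallest that 36 assignments allow). With the GENCODE lengths the ratio under DMSO was 0.301 in nB, 0.608 in actB, and 1.51 in Pb, so which gene is the higher in actB depends on the lengths, and the differences between groups do not. The tests of pairs and these other lengths were chosen after the values were seen. For all pairs, these tests take the DMSO and GSK343 libraries of a replicate number as independent. Such libraries correlated across treatments, so the p-values may be too small.

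*Magt1* and *Tusc3* are alternative oxidoreductase subunits that occur with *Stt3b*. *Magt1* was at 12.4 and 12.9 RPKM in nB, 28.0, 24.9, and 27.0 in actB, and 52.9, 51.6, and 49.2 in Pb, while *Tusc3* was at 7.92 and 7.93 in nB, 5.08, 5.11, and 5.34 in actB, and 6.09, 5.51, and 6.54 in Pb. *Magt1* increased without overlap at both steps (log2 fold changes 1.06 and 0.94, adjusted p = 5.73e-09 and 1.04e-08), and *Tusc3* was highest in nB (log2 fold change -0.59 to actB, adjusted p = 2.60e-05). The rise of *Tusc3* from actB to Pb, 0.21 (adjusted p = 0.0206), was lost without actB DMSO replicate 1 (adjusted p = 0.0576), Pb DMSO replicate 1 (0.0532), or Pb DMSO replicate 3 (0.0913), and with only the groups compared (0.0527). The ratio of *Magt1* to *Tusc3* was 1.60 in nB, 5.14 in actB, and 8.48 in Pb with DMSO. The log2 difference between Pb and actB over both treatments was 0.73 (exact permutation p = 0.005, adjusted p = 0.01). With swaps only within replicate numbers the exact permutation p was 0.03125. The table gives *Magt1* a length of 7648 bases, against 4672 exon bases in GENCODE vM1, so the ratio itself depends on the lengths used, and its differences between groups do not.

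**Figure D3:**
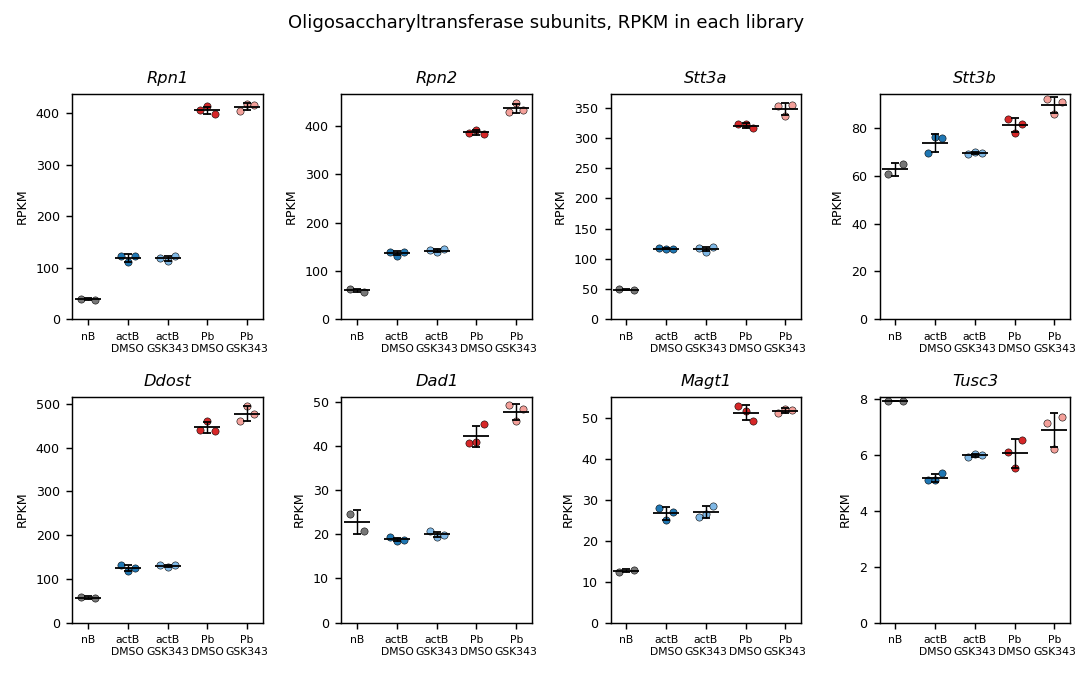
RPKM of the 8 OST subunits in each library (points), with the mean and SD of each group (bars; n = 2 for nB and 3 for the others), on axes that start at 0. *Rpn1*, *Rpn2*, *Ddost*, and *Stt3a* are highest in Pb by a wide margin, while *Stt3b* stays between 60.8 and 91.9 RPKM and *Tusc3* is highest in nB.

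All 4 members that trim glucose or check folding rose at both steps, with median log2 fold changes of 0.60 from nB to actB and 1.06 from actB to Pb. *Prkcsh*, the noncatalytic subunit of glucosidase II, was at 31.3 and 30.9 RPKM in nB, 69.7, 65.6, and 67.8 in actB, and 138, 144, and 140.2 in Pb. No library overlapped with another group, and its log2 fold changes were 1.11 and 1.05 (adjusted p = 1.39e-10 and 2.25e-10). *Ganab*, the catalytic subunit of the same enzyme, had log2 fold changes of 0.50 and 1.23, and *Mogs*, which removes the outermost glucose, of 0.37 and 1.07. The first call of *Mogs* was lost without nB replicate 3 (adjusted p = 0.0677). *Uggt1*, which puts glucose back on unfolded glycoproteins, was at 16.3 and 16.8 RPKM in nB, 26.4, 28.5, and 25.9 in actB, and 41.9, 40.1, and 39.6 in Pb, again without overlap (log2 fold changes 0.69 and 0.59, adjusted p = 3.19e-07 and 7.36e-07).

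Golgi enzymes were divided in direction between nB and actB. Of the 6 that trim mannose and branch the chain, 2 were higher in actB than in nB, 3 lower, and 1 not called, and from actB to Pb 5 rose and 1 fell. *Man1a* and *Man1a2* encode mannosidases that act on the same substrate. *Man1a* was at 65.8 and 72.5 RPKM in nB, 58.5, 69.8, and 62.3 in actB, and 104, 103, and 101 in Pb, with overlap between nB and actB only. Its log2 fold change from actB to Pb was 0.69 (adjusted p = 1.23e-05). *Man1a2* was at 13.8 and 13.2 RPKM in nB, 19.8, 18.5, and 18.9 in actB, and 41.2, 42.6, and 38.2 in Pb, and rose at both steps (0.49 and 1.08 on the log2 scale, adjusted p = 3.87e-06 and 1.41e-09). The ratio of *Man1a2* to *Man1a* was 0.196 in nB, 0.301 in actB, and 0.396 in Pb. The log2 difference between Pb and actB was 0.28 (exact permutation p = 0.01, adjusted p = 0.0133) and became 0.18 without replicate 2 (p = 0.111). With swaps only within replicate numbers the exact permutation p was 0.03125. For *Gmppa* and *Gmppb*, the remaining pair, the log2 difference was 0.06 (exact permutation p = 0.35), and 0.11 without actB GSK343 replicate 2 (p = 0.02).

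*Man2a1*, the mannosidase that follows the first branching step, was at 33.4 and 35.0 RPKM in nB, 26.7, 26.5, and 25.9 in actB, and 89.9, 84.7, and 79.3 in Pb. Its actB libraries were the lowest and its Pb libraries the highest, with log2 fold changes of -0.37 and 1.67 (adjusted p = 8.63e-04 and 7.85e-10). The branching enzymes *Mgat1*, *Mgat2*, and *Mgat5* add N-acetylglucosamine, *Mgat1* for the first branch, *Mgat2* for the second, and *Mgat5* for a later branch that carries long extensions. *Mgat1* was at 63.4 and 63.0 RPKM in nB, 50.1, 59.3, and 54.1 in actB, and 116, 124, and 119 in Pb. All its Pb libraries were above the others, with a log2 fold change of 1.13 from actB (adjusted p = 7.84e-09). Its fall from nB to actB, -0.22 (adjusted p = 0.0129), was lost without nB replicate 1 (adjusted p = 0.0595) or actB DMSO replicate 1 (0.0506), and with only the groups compared (0.0559). *Mgat2* had means of 11.2 ± 0.0743, 23.0 ± 0.397, and 46.0 ± 1.67 RPKM and rose at both steps.

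*Mgat5* went the other way. It was at 3.82 and 3.84 RPKM in nB. In actB it was at 2.07, 3.17, and 2.16 without and 3.13, 3.60, and 2.86 with GSK343, and in Pb at 0.921, 0.767, and 0.680 without and 0.837, 0.758, and 0.843 with the drug. Each Pb library was below each library of the other groups and, with the lengths of the table, below 1 RPKM. The table gives *Mgat5* 5865 bases, against 3836 exon bases in GENCODE vM1, with which the mean in Pb with DMSO was 1.21 RPKM. The mean was 3.12-fold lower in Pb than in actB with DMSO and 4.85-fold lower than in nB, with log2 fold changes of -1.37 (SE 0.14, adjusted p = 2.66e-06) and -1.98 (adjusted p = 1.10e-07). The lowest library held 83 reads of the gene. Replicate 2 was the highest of the actB libraries in each treatment. The log2 fold change from actB to Pb ran from -1.58 to -0.94 over all settings tried and was called under each.

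Of the 3 members for later sugars, *Fut8* adds the core fucose, *B4galt1* adds galactose, and *St6gal1* adds the terminal sialic acid. *St6gal1* was at 105 and 102 RPKM in nB, 80.4, 85.0, and 76.6 in actB, and 243, 238, and 230.2 in Pb. It was lowest in actB and highest in Pb without overlap (log2 fold changes -0.36 and 1.55, adjusted p = 4.97e-04 and 6.17e-10). *B4galt1* was at 29.7 and 28.3 RPKM in nB, 94.9, 111, and 97.7 in actB, and 144, 154, and 138 in Pb, and rose mostly at the first step (1.79 against 0.52 on the log2 scale, adjusted p = 2.58e-09 and 1.08e-04). *Fut8* was at 6.01 and 5.58 RPKM in nB, 16.6, 15.7, and 15.6 in actB, and 18.7, 15.1, and 19.0 in Pb. The last group overlapped with actB through Pb DMSO replicate 2, with a log2 fold change of 0.13 (adjusted p = 0.236) after 1.42 from nB to actB (adjusted p = 9.28e-08). Without that library it was 0.24 (adjusted p = 0.0331), and the rise was also called with median scaling (0.0282), quantile normalization (0.0406), edgeR with RLE factors (0.0199), and without replicate 2 in any cultured group (0.00775).

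**Figure D4:**
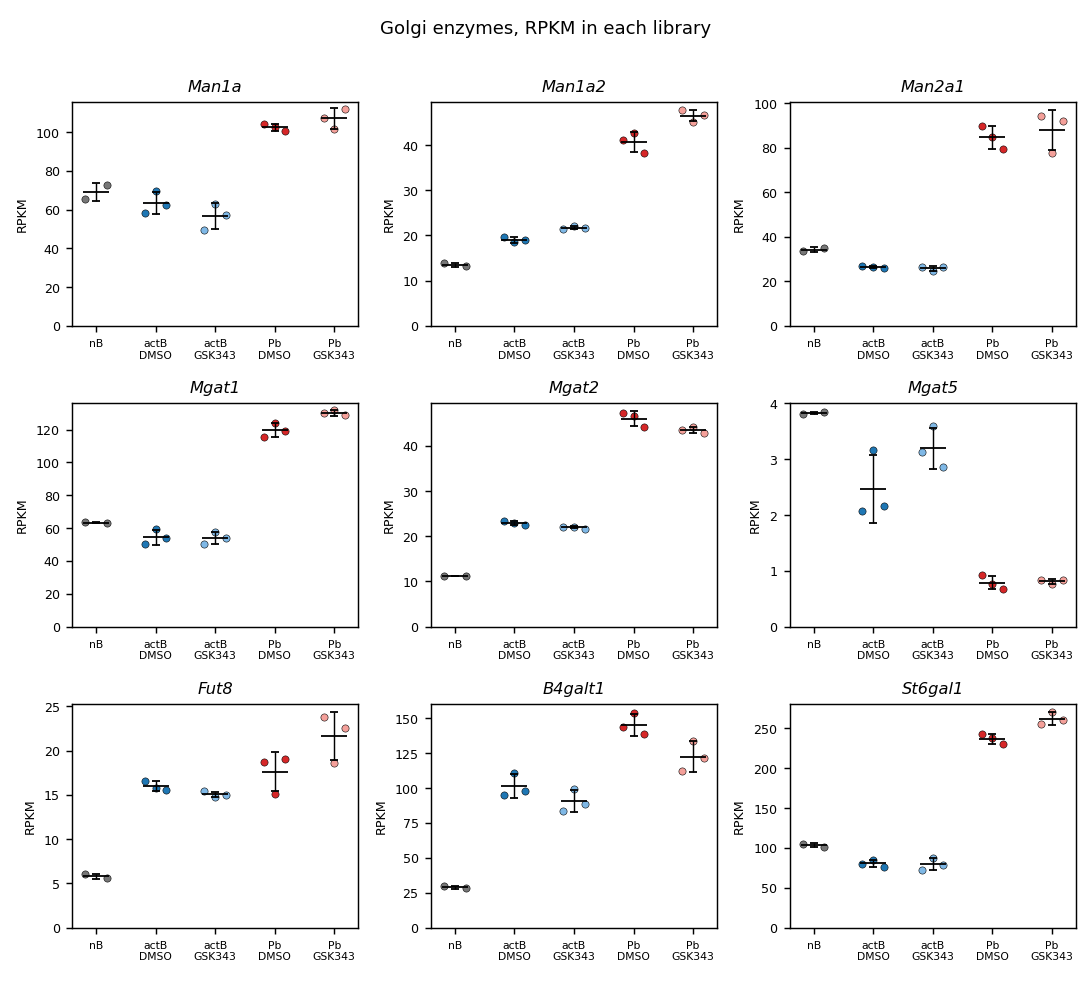
RPKM of the 9 Golgi enzymes in each library (points), with the mean and SD of each group (bars; n = 2 for nB and 3 for the others), on axes that start at 0. *Mgat5* is lowest in Pb (all 6 libraries below 1 RPKM with the lengths of the table), whereas *Man2a1* and *St6gal1* are lowest in actB and highest in Pb.

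For the comparison of actB with nB, calls of members with small differences depended on single libraries. *Alg14* was not called without nB replicate 1 (adjusted p = 0.104), nB replicate 3 (0.163), actB DMSO replicate 1 (0.134), or actB DMSO replicate 3 (0.154), nor with edgeR (0.0887 with TMM and 0.129 with RLE factors). *Alg11* was not called without nB replicate 1 (0.135), and *Dpm1* without nB replicate 1 (0.156), without replicate 2 in any cultured group (0.0581), with edgeR and RLE factors (0.0535), or without actB DMSO replicate 3 (0.0619). *Stt3b* was not called after quantile normalization (0.248). *Man1a*, not called here, was lower in actB after quantile normalization (0.0428) and without replicate 2 in any cultured group (0.0372).

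The rest of the pathway was taken as 51 other genes, of which 48 passed the filter (*Uggt2*, *Mgat3*, and *B4galt2* did not). From actB to Pb 32 rose, 6 fell, and 10 were not called, where 27.3% of all genes were higher and 42.4% lower. The median log2 fold change of these 48 was 0.82. The 4 other OST subunits all rose: *Ostc* (1.32), *Ost4* (0.95), *Tmem258* (1.09), and *Krtcap2* (1.65, all as log2 fold changes). Of 11 lectins, mannosidases, and related enzymes of the ER, 10 rose and *Engase* was not called (0.15), and the largest log2 fold changes were those of *Man1b1* (2.32) and *Edem2* (2.27), which act on misfolded glycoproteins. The chaperone lectin *Calr* reached 1415 ± 26.6 RPKM in Pb with DMSO, from 611 ± 34.5 in actB (SD, n = 3 each). Among 21 genes of dolichol and sugar supply 15 rose and 2 fell (*Ugp2* and *Pmm1*), the largest rise being that of *Dhdds*, a subunit of the enzyme that makes the dolichol chain (1.59). Among the genes of assembly, *Mpdu1* fell (-0.23). The 9 other Golgi enzymes tested were divided, with 3 higher, 3 lower, and 3 not called, from *Man1c1* (1.89, at 0.243 ± 0.0994 RPKM in actB and 1.58 ± 0.417 in Pb) to *St3gal6*, a sialyltransferase (-1.64).

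From nB to actB, 29 of these 48 genes rose, 11 fell, and 8 were not called, against 40.9% of all genes higher and 36.3% lower. From nB to Pb 36 rose, 7 fell, and 5 were not called, against 39.5% and 41.1%. The medians of the 48 were 0.36 and 0.94. Of the Golgi enzymes among the 48, 6 of 9 fell from nB to actB, the largest fall being that of the sialyltransferase *St3gal4* (-1.57).

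GSK343 was compared with DMSO within each cell type. In actB, 2 of 39 were higher with the drug (*Gmppb* and *Man1a2*), 0 were lower, and 37 were not called, where 8.20% of all genes tested were higher and 2.16% lower. In Pb, 5 of 39 were higher (*Gmppb*, *Alg1*, *Rpn2*, *Uggt1*, and *Man1a2*) and 0 lower, against 7.90% and 5.0% of all genes. The share of members higher in Pb was above that of all genes in this fit, but it rests on few genes. Without some single libraries, named below, the count fell to 1, and the share was then below that of all genes. For the count of 0 lower by limma, 2 members were lower in actB (*Alg2* and *Alg5*) and 1 in Pb (*B4galt1*) at an unadjusted p under 0.05, and edgeR called 0 in both. At the same unadjusted threshold 6 members were higher in actB and 17 in Pb. Of all 11299 genes, 2829 in actB and 3045 in Pb passed it in either direction. The median log2 fold change of the members was -0.01 in actB and 0.10 in Pb, and that of all genes 0.03 and 0.00. The drug's effect differed between Pb and actB in 0 of 39 members by limma (0.248% of all genes) and by edgeR. By limma, 5 members had an unadjusted p under 0.05 (*Stt3a*, *Stt3b*, *Prkcsh*, *Uggt1*, and *Fut8*), as did 1017 of all 11299 genes tested.

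The members called rose by small amounts. *Gmppb* was at 17.3, 17.9, and 18.4 RPKM with DMSO and 21.8, 19.8, and 21.6 with GSK343 in actB, and at 47.5, 50.6, and 51.9 and 61.5, 58.2, and 58.7 in Pb. All libraries with the drug were above those without in both cell types, by 0.23 (95% interval 0.12 to 0.35, adjusted p = 0.0161) and 0.25 (0.13 to 0.36, adjusted p = 0.0105) on the log2 scale. *Man1a2* went from 19.8, 18.5, and 18.9 to 21.5, 22.0, and 21.7 RPKM in actB and from 41.2, 42.6, and 38.2 to 47.7, 45.2, and 46.6 in Pb. It too was without overlap, with log2 fold changes of 0.19 (0.08 to 0.29, adjusted p = 0.0305) and 0.19 (0.09 to 0.30, adjusted p = 0.0223).

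*Alg1* was at 17.3, 17.0, and 17.7 RPKM in Pb with DMSO and 19.5, 20.3, and 19.6 with GSK343, *Rpn2* at 385, 392, and 383 and 429.9, 448, and 434, and *Uggt1* at 41.9, 40.1, and 39.6 and 49.4, 43.3, and 46.2. None of these groups overlapped, and the log2 fold changes were 0.19 (adjusted p = 0.0325), 0.18 (0.0194), and 0.19 (0.037). In actB the same genes differed by 0.07, 0.06, and -0.02 and did not pass the test, and the difference between the effects had adjusted p = 0.73, 0.642, and 0.406.

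Taken without a threshold, all GSK343 libraries were above all DMSO libraries for 19 of 39 members in Pb, a larger share than the 18.8% of all genes. They were below them for 1 (*B4galt1*), against 15.3% of all genes. In actB they were above for 8 members and below for 4 (*Alg5*, *Prkcsh*, *Mgat2*, and *Fut8*), against 18.3% and 7.52% of all genes. *B4galt1* was at 144, 154, and 138 RPKM in Pb with DMSO, and the drug libraries held 112, 134, and 121, a difference on the log2 scale of -0.25 (adjusted p = 0.0705). Summed over the members, RPM was 12111 to 12428 in Pb with DMSO and 13043 to 13129 with GSK343, and 5450 to 5553 and 5332 to 5542 in actB. Levels of B cell markers moved with the drug as well: the summed RPM of 6 B cell markers was 2713 to 2742 in Pb with DMSO and 2394 to 2583 with GSK343, and that of 3 naive B cell markers 88.9 to 103 and 41.6 to 58.1. The summed RPM of 5 plasmablast markers was 4341 to 4714 and 4364 to 4609. Of these 5, *Sdc1* was at 28.8 to 30.4 RPKM with DMSO and 53.3 to 58.8 with GSK343, and *Tnfrsf17* at 17.2 to 18.2 and 19.5 to 21.6. *Irf4* went the other way, at 358 to 391 with DMSO and 300 to 323 with GSK343. *Prdm1* (116 to 125 and 112 to 124) and *Xbp1* (892 to 996 and 984 to 1056) overlapped between the treatments. In actB the summed RPM of the plasmablast markers was 1085 to 1120 with DMSO and 1150 to 1331 with GSK343. That of 6 myeloid markers was 23.8 to 31.5 and 45.3 to 85.1, and both sums were without overlap. The myeloid sum was mostly *Itgam*, with actB means of 4.27 RPKM with DMSO and 9.95 with GSK343. *Lyz2*, *Csf1r*, and *Cd14* were at 0.422, 0.0189, and 0.0461 with DMSO and 0.772, 0.0347, and 0.0361 with GSK343. *S100a8* and *S100a9* were at 0 in every actB library. Sums of the B cell markers (4408 to 5017 and 4440 to 4795) and of the naive B cell markers (548 to 673 and 377 to 570) overlapped in actB. The part of the markers in the result was not tested in either cell type, nor was that of Il6, where its label holds.

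The drug's calls depended on the libraries and on the fit. So did those of all 11299 genes tested. Leaving out 1 library moved them from 1170 to between 608 and 1363 in actB and from 1458 to between 690 and 1304 in Pb. When the replicate number entered as a block, 4 members were higher and 2 lower in actB (*Gmppb*, *Tusc3*, *Mogs*, and *Man1a2* against *Alg2* and *B4galt1*), where 14.7% of all genes were higher and 6.24% lower. In Pb, 11 of 39 were higher, a larger share than the 13.6% of all genes, and 1 was lower, against 10.7%. Those higher in Pb were *Gmppb*, *Alg1*, *Alg8*, *Rpn2*, *Stt3a*, *Dad1*, *Mogs*, *Ganab*, *Uggt1*, *Man1a2*, and *Fut8*, and *B4galt1* was lower (log2 fold change -0.25, adjusted p = 0.00222). Without replicate 2 in any cultured group, 3 were higher (*Gmppb*, *Dpm2*, and *Mgat5*) and 1 lower (*Alg5*) in actB, against 10.4% and 4.97% of all genes, and 8 were higher and 1 lower (*B4galt1*) in Pb, against 9.97% and 7.52%. The count of members called in actB was 1 without actB DMSO replicate 1 or 3 or actB GSK343 replicate 2, 4 without actB DMSO replicate 2, and 0 without actB GSK343 replicate 1 or 3. In Pb it was 1 without Pb DMSO replicate 1 or 3 or Pb GSK343 replicate 1 or 3, 3 without Pb DMSO replicate 2, and 7 without Pb GSK343 replicate 2. *Gmppb* stayed called in Pb in all but 1 of these (adjusted p = 0.0503 without Pb GSK343 replicate 1), and in actB it was lost without actB DMSO replicate 1 (0.0664), actB GSK343 replicate 1 (0.0624), or actB GSK343 replicate 3 (0.0673). *Alg1* was lost in Pb whichever of the 6 libraries was left out (adjusted p 0.0609 to 0.0959). *Rpn2* kept its call only without Pb DMSO replicate 2 or Pb GSK343 replicate 1 (0.0376 to 0.064 over the 6), *Uggt1* only without Pb GSK343 replicate 2 (0.0195 to 0.153), and *Man1a2* only without replicate 2 of either treatment in Pb (0.0208 to 0.0889) and only without actB DMSO replicate 1 in actB (0.0449 to 0.0927).

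Of the 48 other genes of the pathway, 8 passed the test with GSK343 in actB and 7 in Pb, each with higher levels. Of all genes tested, 8.20% were higher and 2.16% lower in actB, and 7.90% and 5.0% in Pb. Among the 48, the count in actB was 3 to 5 without any 1 of the 6 actB libraries other than GSK343 replicate 2. In Pb it was 4 without Pb GSK343 replicate 3. *Gmds* (log2 fold changes 0.43 in actB and 0.51 in Pb) makes GDP-fucose, *Gne* (0.22 and 0.31) starts sialic acid synthesis, *Ugp2* (0.38 and 0.27) makes UDP-glucose, and *Mlec* (0.23 and 0.19) is an ER lectin, and all 4 were called in both cell types. So were the Golgi enzymes *Mgat4a*, a further branching enzyme (0.43 and 0.45), and *St3gal4*. *Edem3* (0.25) and *Ngly1* (0.19) were called in actB, and *Calr* (0.23) was called in Pb. *St3gal4* had the largest log2 fold changes of these genes, 0.74 in actB and 0.67 in Pb, from 2.63 ± 0.173 to 4.58 ± 0.289 RPKM and from 2.88 ± 0.436 to 4.70 ± 0.217 (SD, n = 3 each).

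**Figure D5:**
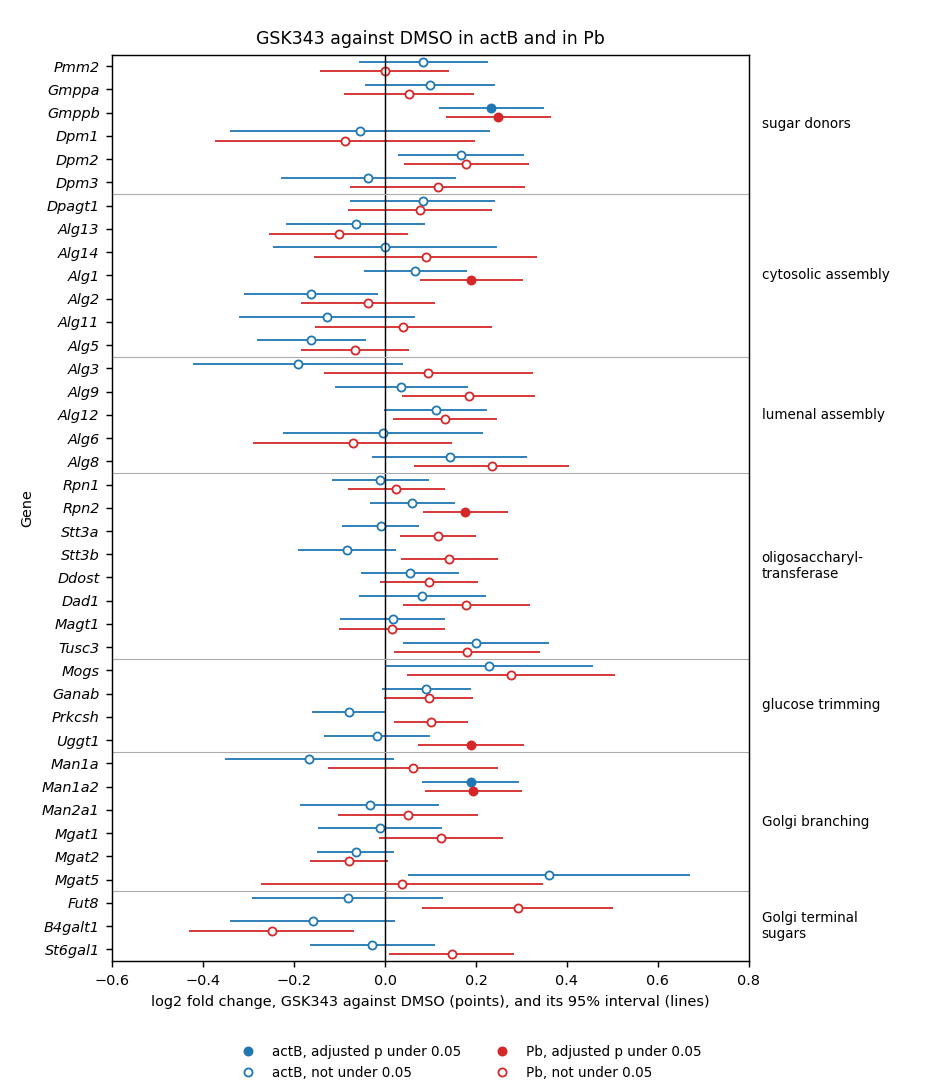
Log2 fold change of GSK343 against DMSO for each member (rows, by role) in actB (blue) and in Pb (red), with lines for the 95% interval and filled points for an adjusted p under 0.05. Filled points are those of 2 members in actB and 5 in Pb, and all points lie between -0.25 and 0.36 on an axis from -0.6 to 0.8.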

How the data were processed

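Messenger RNA had been made into libraries with a stranded polyA kit and sequenced in pairs. The authors mapped reads to mm9 with TopHat2 and counted them over UCSC Known Gene exons, and strand use in this counting is not given in the sources used here. The deposited table holds RPM values (reads scaled to each library's total, under a name that says RPKM) for 15 libraries, with gene lengths. In it all values came out as whole reads within 0.0006 RPM. The 92 genes without a symbol, at most 0.0905% of reads, were left out. RPKM was computed as RPM per kilobase of the table's length, and totals of 19421830 to 26307413 reads set the precision. Errors are the SD or SE over libraries.

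The test was limma 3.58.1 (trend, R 4.3.3) on log2(RPKM + 0.25), for 11299 genes and 14 libraries in 5 groups with 9 residual degrees of freedom. P-values were two-sided and adjusted by Benjamini-Hochberg over all genes, with calls at an adjusted p under 0.05. Fold changes on this scale understate those of low genes. Ratios of pairs of related genes were compared by exact permutation over libraries, separately within each treatment. Deposited nB libraries 1 and 2 were averaged.

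The members, the gene lists, and the tests were chosen with earlier results of these data known. Named with all their libraries were the members with the 5 largest rises and 3 largest falls without overlap in each comparison of cell types, those called with GSK343, the highest of each role, and the 4 pairs. Alternatives were pseudocounts of 1 and 0.05, no filter or RPKM of at least 3, median scaling, quantile normalization, edgeR 4.0.16 quasi-likelihood on the recovered reads (11146 genes, TMM or RLE factors), all columns as deposited, only the groups compared, leaving out libraries, and the replicate number as a block. Libraries with the same number in their titles tended to vary together. Deviations from group means correlated by 0.158 to 0.713 in 18 pairs of libraries with the same number and by -0.603 to 0.370 in 36 pairs with different numbers. These ranges overlap, and replicate 2 stood apart in every cultured group, so pairing is less clear for replicates 1 and 3. The fitting scripts were tested on simulated data.

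RefSeq promoters were matched by symbol for 33 of 39 members (not for *Alg11*, *Alg2*, *Dpagt1*, *Gmppb*, *Man1a2*, and *Tusc3*), and 4 had several starts. Python 3.11.15, pandas 2.3.3, numpy 2.4.6, and matplotlib 3.10.9 were used for tables and figures.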

Additional observations from a re-analysis of the deposited data

Results flagged for a closer look

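*Prkcsh*, the noncatalytic subunit of glucosidase II, was flagged for opposite directions with GSK343. It was the only member with all drug libraries below all DMSO libraries in actB and above them in Pb. Of all genes tested, 7.52% were below in actB and 18.8% above in Pb, and the share with both was not counted. In actB *Prkcsh* was at 69.7, 65.6, and 67.8 RPKM with DMSO and 65.3, 64.5, and 62.4 with GSK343, and in Pb at 138, 144, and 140.2 and 151, 153, and 149. The log2 fold change was -0.08 in actB and 0.10 in Pb, and neither passed the test (adjusted p = 0.218 and 0.103). The difference between the effects was 0.1794 on the log2 scale (SE 0.05) and did not pass the test over all genes (limma, adjusted p = 0.232, and 0.154 to 0.526 when each library was left out in turn).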

How the results depend on the processing

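Counts of members called between cell types stayed within 1.5 times the reported ones under every alternative: 25 to 28 higher and 6 to 9 lower from nB to actB, 30 to 35 higher and 2 lower from actB to Pb, and 34 to 35 higher and 2 lower from nB to Pb. No value changed its direction under an alternative where it was called. The GSK343 counts moved. In actB the 2 members called became 1 with median scaling, 1 with edgeR under either TMM or RLE factors, 0 with only the groups compared, 4 without replicate 2 of every cultured group, and 0 to 4 when each library was left out in turn. In Pb the 5 became 9 without replicate 2 of every cultured group and 1 to 7 when each library was left out. Calls over all 11299 genes tested moved as well. In actB, 1170 became 386 with only the groups compared, 1740 without replicate 2, and 608 to 1363 when each library was left out. In Pb, 1458 became 1977 without replicate 2 and 690 to 1304 when each library was left out. With the replicate block they were 2368 in actB and 2740 in Pb. The cause was not tested. With the replicate block, which takes libraries of the same number as paired, the counts were 6 in actB and 12 in Pb. Between cell types the block changed the call of *Alg6* alone.

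For the 48 other genes of the pathway, the 8 called with GSK343 in actB became 14 with the block, 13 without replicate 2 of every cultured group, 2 with only the groups compared, and 3 to 10 when each library was left out (3 without actB GSK343 replicate 3). The 7 called in Pb became 11 with the block, 11 without replicate 2 of every cultured group, and 4 to 9 when each library was left out (4 without Pb GSK343 replicate 3). Counts over all genes under these settings are those given above. Ratios of related genes in DMSO libraries alone cannot go below an exact p of 0.1, so that comparison says nothing of their stability. Members with the fewest reads, such as *Dpm1* with 52 to 100, are the least precise, and mRNA levels give neither protein nor glycan levels.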
